A study of Mus musculus with 12 samples.

Results

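The genes described here are 8 genes of the contractile and basal programme of mammary myoepithelial cells: the oxytocin receptor gene Oxtr, the smooth muscle contractile genes Acta2, Myh11, Cnn1, Mylk and Tagln, and the basal genes Trp63 and Cdh3. They were chosen by name, and all 8 were found among the 20402 genes tested, through 18 gene probes of the array. Of these 18 probes, 13 passed the filter on dim probes, and each of the 8 genes kept at least 1 probe.

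The values come from mouse mammary tumors labelled ShcA-null, each hybridised on a two-colour Agilent array against 1 pool of RNA from NIC mammary tumors. ShcA is the adaptor protein encoded by Shc1, which links receptor tyrosine kinases to Ras signalling. NIC tumors carry an activated Neu (ErbB2) receptor made together with Cre recombinase under the mouse mammary tumor virus promoter, which is active in the mammary epithelium, so a deletion made by that Cre would be limited to cells that use the promoter and would leave the stroma as it was. Both the ShcA-null tumors and the pool carry the NIC transgene, and the pool is labelled without loss of Shc. There were 8 tumors on 12 arrays: on the first array of each tumor the tumor RNA carried Cy5, and tumors 1 to 4 had a second array with swapped dyes. Age, strain and the size of the pool are absent from the labels, as is whether the 8 tumors came from 8 animals, and the p-values therefore cover the spread among these tumors, whatever its source. The pool counts as 1 control sample, and a test of the ratio against 0 leaves out the spread of control tumors.

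Myoepithelial cells form the outer, basal layer of mammary ducts and alveoli, next to the basement membrane. They contract like smooth muscle when oxytocin from the pituitary binds its receptor, which raises calcium in the cell, activates myosin light chain kinase and ejects milk. The transcription factor p63 maintains the basal lineage, and P-cadherin joins basal cells to each other. The contractile genes are shared with vascular smooth muscle, pericytes and myofibroblasts, so in whole tumors no single gene of the group marks a cell type.

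The probes that the results turn on are 60-base oligonucleotides, read here from the array files with their mm7 coordinates. They are shown because probes of Acta2 and Tagln gave different values in the same tumors, and where a probe lies along its gene is used below. All are printed 5′ to 3′ in lower case, and lie in coding sequence.
Acta2 A_51_P450957 (chr19:33949738-33952992, minus strand, across a splice junction): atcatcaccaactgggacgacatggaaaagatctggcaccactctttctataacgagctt
Tagln A_52_P517683 (chr9:45888956-45889015, minus strand): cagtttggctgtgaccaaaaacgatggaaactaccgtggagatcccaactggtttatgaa
Mylk A_52_P145912 (chr16:34669844-34669903, plus strand): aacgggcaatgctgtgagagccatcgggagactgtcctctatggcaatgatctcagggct
Mylk A_52_P575217 (chr16:34671521-34671580, plus strand): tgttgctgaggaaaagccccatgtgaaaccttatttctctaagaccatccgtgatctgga
Myh11 A_51_P362429 (chr16:13741638-13744562, minus strand, across a splice junction): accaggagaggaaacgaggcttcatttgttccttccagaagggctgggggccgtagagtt
The other probes are named by their position below: on the minus strand a lower coordinate is further downstream, toward the 3′ end of the transcript.

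Before the members are compared, the arrays themselves need a description. The targeted gene Shc1 had a mean log2 ratio of 0.12 ± 0.65 (SD, n = 8) and was not called (limma adjusted p = 0.716). It was -2.05 on the first array of tumor 3 and -2.22 on the swapped array labelled tumor 2, and between -0.027 and 0.74 on the other 10 arrays. The label was therefore not borne out by the Shc1 probe in the other tumors, although the labels do not say which part of the gene was deleted and a probe outside that part checks nothing. Every direction below is that of tumors labelled ShcA-null, with this limit. Over all genes, the swapped array labelled tumor 2 correlated with the first array of tumor 3 at r = 0.824 and with the first array of tumor 2 at 0.148. The swapped arrays labelled 3 and 4 also correlated best with another tumor's first array, that of tumor 4 (r = 0.343, against 0.136 with their own label for tumor 3) and that of tumor 8 (0.670, against 0.258 for tumor 4), and the array labelled 1 matched its own (0.378). These are correlations over genes, which are not independent replicates. Values are therefore given for every array, and the tests are repeated on the first arrays alone and with each swapped array joined to its best match.

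Of the 8 genes, Oxtr and Cdh3 were called higher in the tumors than in the pool, and the other 6 did not pass the test. Oxtr had a mean log2 ratio of 0.89 ± 0.62 (SD, n = 8), 1.85 times the pool, and Cdh3 of 1.11 ± 0.76 (SD, n = 7), 2.16 times the pool. Both passed in limma (adjusted p = 0.0169 and 0.0212 over all genes). Over all genes tested, 17.2% were called in either direction and 6.6% were called higher, against 2 of 8 here. The median over the 8 genes was 0.37, against -0.019 over all genes tested. On the first arrays only, Cdh3 was the 1 member called higher, where 8.33% of all genes were. With a dye term and swapped arrays joined to their best match, no member was called in limma (Oxtr adjusted p = 0.107, Cdh3 adjusted p = 0.0928), where 8.02% of all genes were called in either direction. Both had an unadjusted p under 0.05 in that fit, 2 of 8 members, and the share of all genes was not counted for it. In the test over 8 tumors without these changes, 3 of 8 members and 6770 of 20402 genes had an unadjusted p under 0.05.

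**Figure D1:**
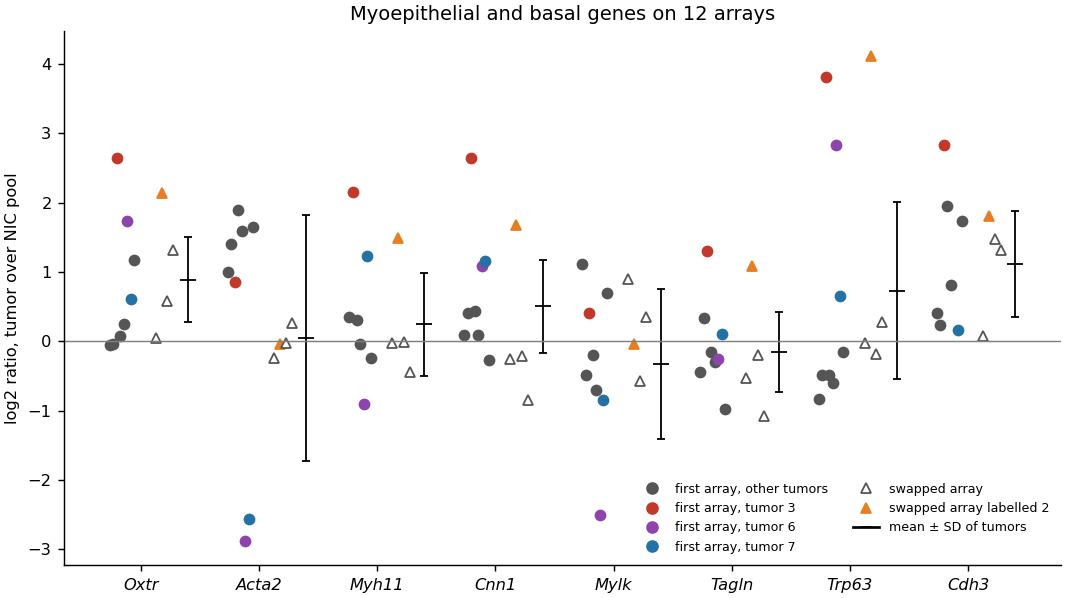
Log2 ratio of tumor over NIC pool (vertical axis) for the 8 genes (horizontal axis) on each array, with circles for first arrays, triangles for swapped arrays, and a bar for the mean ± SD over tumors. The first array of tumor 3 and the swapped array labelled tumor 2 stand highest for Trp63, at 3.82 and 4.12, and tumors 6 and 7 stand lowest for Acta2, at -2.88 and -2.56.

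Oxtr encodes the receptor through which oxytocin makes myoepithelial cells contract. In order of tumors 1 to 8, the first arrays read log2 ratios of -0.057, -0.032, 2.64, 0.076, 0.25, 1.74, 0.61 and 1.18 for Oxtr, and the swapped arrays, in order of labels 1 to 4, read 0.048, 2.14, 0.58 and 1.31. Tumors 3, 6 and 8 and the swapped arrays labelled 2 and 4 were high, and tumors 1, 2 and 4 lay near the pool on their first arrays. With both arrays of a tumor averaged, 7 of 8 tumors were above the pool (exact two-sided sign-flip permutation p = 0.0156, where 0.0078 is the smallest that 8 tumors allow). In that count tumor 2 stands above the pool only through the swapped array labelled 2, which matches tumor 3, so 1 tumor's profile may enter as 2. On the first arrays 6 of 8 tumors were above the pool (exact two-sided sign-flip permutation p = 0.0391). This dim probe stood well above background in each channel on 10 of the 12 arrays. A second Oxtr probe (A_52_P430422, in coding sequence and upstream of the first) was too dim to be tested. It was well above background on 3 arrays in the tumor channel, and its mean was 0.26 ± 0.24 (SD, n = 8). On the first arrays of tumors 3, 6 and 8 it read 0.78, 0.033 and 0.63. In tumors 6 and 8 neither channel was well above background. The part of probe position in the Oxtr value of tumor 6 was not tested. Without the first array of tumor 3 and the swapped array labelled tumor 2, Oxtr had a mean of 0.63 and was not called (limma adjusted p = 0.0597).

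Acta2 encodes smooth muscle actin alpha 2, the main thin filament actin of myoepithelial cells and of vascular smooth muscle. Its brightest probe, A_51_P450957, read 1.01, 1.40, 0.85, 1.90, 1.59, -2.88, -2.56 and 1.64 on first arrays, in the same order, and -0.24, -0.041, -0.020 and 0.26 on swapped arrays. On the first arrays, tumors 6 and 7 were far below the pool and the other 6 tumors were above it, while the 4 swapped arrays lay near 0. The mean of 0.045 ± 1.77 (SD, n = 8) did not differ from 0 beyond that spread (limma adjusted p = 0.962), and its 95% interval ran from -1.44 to 1.53. The spot was not saturated on any of the 12 arrays.

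Another Acta2 probe, A_52_P420504, is spotted 10 times on each array and lies downstream of the first on the transcript (chr19:33942803-33942862, minus strand). It gave -0.12, 0.21, 1.70, -0.039, -0.21, 0.16, 0.38 and -0.83 on the first arrays, and -0.78, 1.19, -0.69 and -1.57 on the swapped arrays. On this probe tumor 3 and the swapped array labelled 2 were high, and tumors 6 and 7 lay slightly above the pool, where the first probe had them lowest. A probe further downstream, A_52_P210078, gave 1.12 in tumor 6 and 0.13 in tumor 7. The means of these 2 downstream probes were -0.068 ± 0.59 and -0.026 ± 0.95 (SD, n = 8), so neither had a mean beyond its spread, but the order of the tumors depended on the probe.

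**Figure D2:**
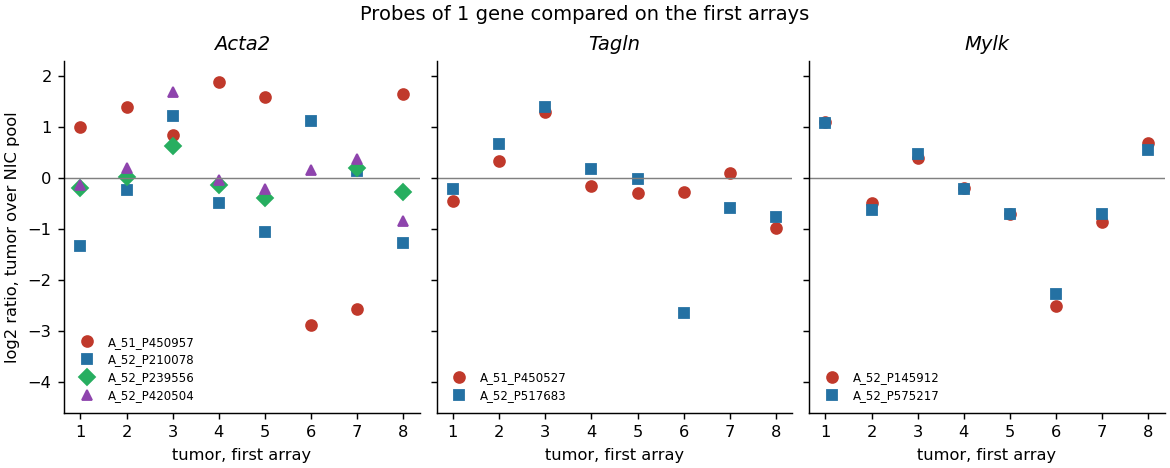
Log2 ratio of tumor over NIC pool (vertical axis) on the first array of each tumor (horizontal axis) for each kept probe of Acta2, Tagln and Mylk, 1 symbol a probe. For Acta2 in tumor 6 the probes read from -2.88 to 1.12, for Tagln in tumor 6 the upstream probe lies below the downstream one, and the 2 Mylk probes lie together.

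Position along the transcript was examined over all genes with an upstream and a downstream kept probe between 300 and 50000 bases apart. The upstream probe's log2 ratio minus the downstream probe's had a median of -0.87 on the array of tumor 6 (5394 genes) and -0.60 on that of tumor 7 (5564 genes). On the other 10 arrays the median lay between -0.14 and 0.35. In tumors 6 and 7, 46.8% and 38.1% of these genes had an upstream probe more than 1 log2 unit below the downstream one. The low values of Acta2, Mylk and Tagln in tumor 6 were read by coding probes, and the part of probe position in them was not tested. Without tumors 6 and 7, Acta2 on its brightest probe had a mean of 0.97 and was called higher (limma adjusted p = 0.013). In that setting 5051 of all genes were called in either direction, against 3503 with all 8 tumors. The first and swapped arrays of Acta2 still differed as given above, and its call rests on its brightest probe. On A_52_P420504 the first arrays of tumors 1, 4, 5 and 8 read -0.12, -0.039, -0.21 and -0.83. Those of tumors 2 and 3 read 0.21 and 1.70. The other Acta2 probes were not tested without tumors 6 and 7.

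**Figure D3:**
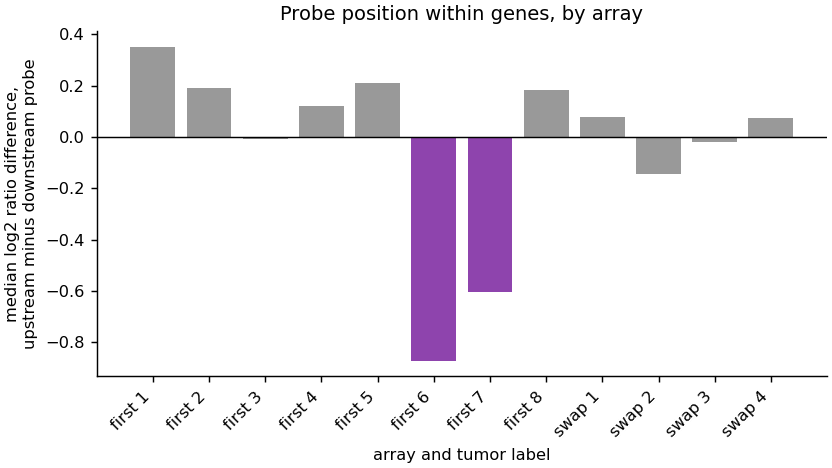
Median over genes of the log2 ratio of the upstream probe minus that of the downstream probe of the same gene (vertical axis, log2 units), for each array (horizontal axis). The bars of the first arrays of tumors 6 and 7, at -0.87 and -0.60, lie below those of the other 10 arrays, which run from -0.14 to 0.35.

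Myh11 encodes smooth muscle myosin heavy chain. For tumors 2 to 8 it read 0.35, 2.16, 0.30, -0.034, -0.90, 1.23 and -0.24 on first arrays, and -0.026, 1.49, -0.015 and -0.45 on the swapped arrays. The spot on the first array of tumor 1 was an outlier and was left out, so that tumor rests on its swapped array. Tumors 3 and 7 and the swapped array labelled 2 were high and tumor 6 was low, and the mean was 0.24 ± 0.75 (SD, n = 8; limma adjusted p = 0.501).

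Cnn1 encodes calponin 1, which binds actin and slows the myosin cycle. It gave 0.093, 0.41, 2.64, 0.44, 0.095, 1.08, 1.16 and -0.27 on the first arrays, and -0.26, 1.68, -0.21 and -0.84 on the swapped arrays. Tumors 3, 6 and 7 and the swapped array labelled 2 were above 1, and the other arrays lay between -0.84 and 0.44. The mean was 0.51 ± 0.67 (SD, n = 8) with a 95% interval from -0.056 to 1.07, and it was not called (limma adjusted p = 0.135). On the first arrays 7 of 8 tumors were above the pool (exact two-sided sign-flip permutation p = 0.0391, the same as for Oxtr). Cnn1 was not called there either (limma adjusted p = 0.11).

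Mylk encodes myosin light chain kinase, the enzyme that starts contraction by phosphorylating myosin light chain. Its brighter probe gave 1.11, -0.48, 0.40, -0.19, -0.70, -2.50, -0.85 and 0.69 on the first arrays, and 0.90, -0.036, -0.57 and 0.35 on the swapped arrays. Tumor 6 was the lowest of the first arrays, and tumor 1 was the highest among the first and among the swapped arrays. The 2 kept probes had means of -0.33 ± 1.08 and -0.27 ± 0.99 (SD, n = 8), and the brighter one was not called (limma adjusted p = 0.523).

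Tagln encodes transgelin, an actin-binding protein of smooth muscle. Its brighter probe, A_51_P450527 (chr9:45888137-45888196, minus strand), gave -0.44, 0.33, 1.30, -0.16, -0.29, -0.26, 0.11 and -0.98 on the first arrays, and -0.53, 1.09, -0.20 and -1.07 on the swapped arrays. Tumor 3 and the swapped array labelled 2 were high, and tumor 8 and the swapped array labelled 4 were low. The mean was -0.16 ± 0.58 (SD, n = 8; limma adjusted p = 0.586), and it turned to 0.17 with each array centred on its median in place of loess. The coding probe minus this downstream probe was -2.38 in tumor 6, -0.70 in tumor 7, and between -0.043 and 0.35 on the other 10 arrays.

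Trp63 encodes p63, the transcription factor of the basal lineage. It gave -0.83, -0.48, 3.82, -0.48, -0.60, 2.83, 0.65 and -0.15 on the first arrays, and -0.026, 4.12, -0.19 and 0.28 on the swapped arrays. Tumors 3 and 6 and the swapped array labelled 2 were far above the pool, and the other 9 arrays lay between -0.83 and 0.65. The mean was 0.73 ± 1.27 (SD, n = 8; limma adjusted p = 0.224), and without the first array of tumor 3 and the swapped array labelled tumor 2 it was 0.19. A pair of dimmer Trp63 probes, not tested, gave 1.10 and 1.27 in tumor 3 but -0.25 and 0.29 in tumor 6, where neither was well above background.

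Cdh3 encodes P-cadherin, the adhesion molecule of basal and myoepithelial cells. For tumors 1, 2, 3, 4, 5, 7 and 8 it read 0.41, 0.24, 2.83, 1.95, 0.82, 0.16 and 1.74 on first arrays, and 0.076, 1.81, 1.48 and 1.32 on the swapped arrays. Tumor 6 has no value because its spot was an outlier. Every measured array was above the pool, with tumors 3, 4 and 8 high and tumors 1, 2 and 7 low. The exact two-sided sign-flip permutation p was 0.0156, the smallest that 7 tumors allow (0.016). Without the first array of tumor 3 and the swapped array labelled tumor 2, Cdh3 had a mean of 0.90 and was still called (limma adjusted p = 0.0369). In that fit tumor 3 rests on the swapped array labelled 3, which matches tumor 4. The swapped array labelled 4, averaged into tumor 4, matches tumor 8, so 1 tumor's profile may enter as 2. In the test over all arrays, the call was lost without tumor 4 (adjusted p = 0.0622 in limma) and without tumor 8 (0.0591).

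In the authors' deposited value table, set on the same 8 tumors, Oxtr had a mean of 1.11 ± 0.69 and Cdh3 of 1.20 ± 0.63, and the means of the other 6 genes ran from -0.23 for Mylk to 0.77 for Trp63. In tumors as a whole, fewer cells of a type and less RNA per cell cannot be told apart.

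Spread between tumors was set beside that of all genes, on the brightest probe of each member. Over the first arrays the median gene had an SD of 0.50 log2 units. Acta2 had 1.94 and Trp63 1.76, above 99.8% and 99.3% of genes, and Mylk, Cdh3, Myh11, Oxtr and Cnn1 lay between the 82.8th and the 90.7th percentile. The spread of Acta2 rests on that probe and on tumors 6 and 7: without them its SD was 0.40, and the probe with 10 spots, A_52_P420504, had 0.72 over the same 8 arrays. That of Trp63 was 1.78 without those tumors. Tagln was the least variable of the 8, with an SD of 0.67 at the 66.7th percentile. On the first array of tumor 3 all 8 members were above the pool with a median of 2.40, and 6 were more than 1 log2 unit above it, as were 13.6% of all genes. On the swapped array labelled 2 the median of the members was 1.59, and 6 were more than 1 unit above the pool, as were 14.5% of all genes. On the other 10 arrays the median of the members lay between -0.26 and 0.39.

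Correlations were computed for the 28 pairs of members over the 8 first arrays (7 tumors, or 6, where a value was missing). None passed after Benjamini-Hochberg adjustment over the 28 pairs, by Pearson or by Spearman, although 6 and 3 pairs had an unadjusted p under 0.05. The strongest was between Oxtr and Trp63, with Pearson's r = 0.936 (exact permutation p = 0.00317, adjusted 0.0641) and Spearman's rho = 0.881 (exact permutation p = 0.00724, adjusted 0.203), and r was 0.590 without tumors 3 and 6. Cnn1 correlated with Tagln at r = 0.885 (exact permutation p = 0.00687, adjusted 0.0641; rho = 0.833, exact permutation p = 0.0154, adjusted 0.215), and r was 0.549 without tumors 3 and 7. Cnn1 and Trp63 gave r = 0.883 (exact permutation p = 0.00521, adjusted 0.0641; rho = 0.714, exact permutation p = 0.0576, adjusted 0.403), and 0.781 without those tumors. Acta2, on its brightest probe, had a negative r with Oxtr (-0.325), Cnn1 (-0.376), Tagln (-0.070) and Trp63 (-0.499). Its r was positive with Mylk (0.706), Cdh3 (0.404) and Myh11 (0.088). No pair with Acta2 had an unadjusted exact permutation p under 0.05.

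By likeness over the first arrays, among 16480 genes, the genes nearest to the mean of the 5 contractile genes were Emilin1, which encodes an elastic fibre protein (r = 0.988), Pef1 (0.987), Cd47 (0.986), Shank3 (0.982) and Eng, the endothelial co-receptor endoglin (0.982), over 8 tumors. Among the genes nearest to Oxtr were the prostaglandin receptor gene Ptger2 (0.981) and Lamp2 (0.981). Nearest to Trp63 were Omd (0.992), Best1 (0.990) and Clec4d (0.990), and nearest to Cdh3, over 7 tumors, were B3gnt3 (0.979), Gpr18 (0.968) and Rps12 (0.961). These are the highest of many correlations over few tumors and are given as a description. The mean of the 5 contractile genes was lowest in tumors 6 and 7, at -1.09 and -0.18. Acta2 on its brightest probe read -2.88 and -2.56 there, and Cnn1 1.08 and 1.16. All 5 genes nearest to that mean were also lowest in tumor 6 among first arrays. The part of probe position in this likeness was not tested. Rps12 differed between dyes, at 1.71 on the first and -1.35 on the swapped array labelled tumor 1. Lamp2 and Cd47 also differed, at -0.70 and -0.26 on the first array of tumor 1 and 1.08 and 0.70 on its swapped array. Both were below the pool on every first array but that of tumor 3, and above it on every swapped array.

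Other basal lineage genes were measured from a list of 19, of which 2 were called higher, 2 lower and 15 not called, with a median of 0.15. Krt5 and Krt14, the keratins of basal cells, rose by 1.29 ± 0.68 (SD, n = 7) and 0.83 ± 0.63 (SD, n = 8), with limma adjusted p = 0.00832 and 0.0231. Lgals7, which encodes galectin 7, fell by 2.45 ± 0.51 (SD, n = 8; limma adjusted p = 0.000149) and was below the pool on all 12 arrays. Egfr fell by 0.51 ± 0.39 (SD, n = 8; limma adjusted p = 0.0336), and was -0.17 and not called with median centring (limma adjusted p = 0.631). With each swapped array joined to its best match, Lgals7 was the 1 gene of this list that was called.

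On the first array of tumor 3 the median of these 19 genes was 2.12, and 13 of them were more than 1 log2 unit above the pool, as were 13.6% of all genes. Krt5 was 4.00 there, Krt14 3.67, the hemidesmosome collagen gene Col17a1 4.52, the laminin gene Lamb3 3.30 and Snai2, a transcription factor of basal cells, 2.69. The swapped array labelled 2 gave 2.62, 2.21, 3.48, 2.18 and 3.14 for these genes. Sox10 went the other way on both, at -0.94 and -1.31, and Itgb4 lay at 0.10 and 0.27. In tumor 6, where Trp63 was 2.83, 12 of the 18 basal genes measured were above the pool, 7 of them by more than 1 log2 unit, and the median was 0.26. Of all genes on that array, 50.5% were above the pool and 13.4% were more than 1 log2 unit above it. The basal genes ran from Igfbp5 at 1.73, Snai2 at 1.38 and Ngfr at 1.31 down to Lamb3 at -1.42, Sparc at -2.08 and Lgals7 at -2.89. Igfbp5 was above the pool on every first array measured (1.01 to 2.89) and below it on every swapped array (-1.69 to -0.11). Tumor 6 had no swapped array. A second Sparc probe had a mean of 0.14 over tumors, against -0.61 for the probe used. The part of probe position in the tumor 6 values was not tested.

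**Figure D4:**
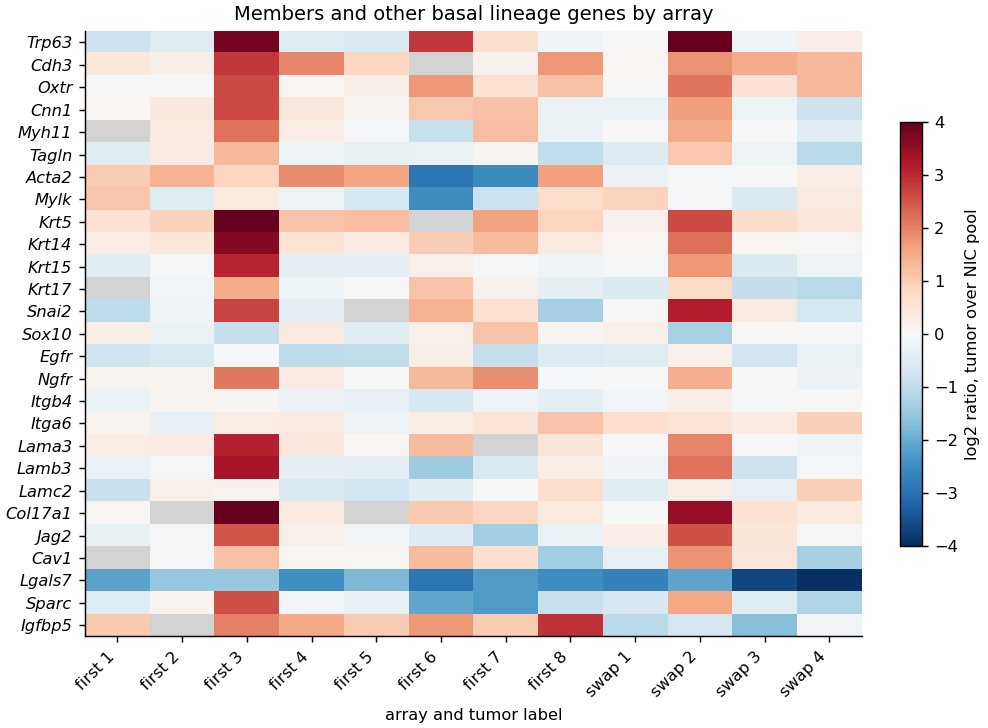
Log2 ratio of tumor over NIC pool (colour, red above and blue below the pool, grey where no value was kept) for the 8 members and 19 other basal lineage genes (rows) on the 12 arrays (columns). The first array of tumor 3 and the swapped array labelled 2 are red for Trp63, Krt5, Krt14 and Col17a1, and Lgals7 is blue on all 12 arrays.

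Markers of several other cell types stood high on the same pair of arrays. On the first array of tumor 3 and the swapped array labelled 2, the median was 3.98 and 2.68 for 10 skeletal muscle genes, 3.31 and 2.53 for 12 fibroblast genes, 1.35 and 0.87 for 8 endothelial genes, and 0.99 and 0.88 for 10 pericyte genes. All 12 fibroblast and all 10 skeletal muscle genes were more than 1 log2 unit above the pool on both. The 12 luminal genes had a median of 0.59 and 0.24 on these arrays. Among them the keratin gene Krt19 read 5.27 and 3.65, and the keratin gene Krt18 read -0.15 and -2.29. The summed signal of the skeletal muscle genes ran from 3040 to 165000 in the tumor channel and from 3020 to 20400 in the pool channel over the 12 arrays, and Myh1, Myh2 and Myh4 were well above background on 6, 7 and 5 of 12 arrays in the tumor channel and on 3, 4 and 4 in the pool channel. That of the fibroblast genes ran from 196000 to 1600000 in the tumors and from 110000 to 459000 in the pool. The part of these cell types in the members' values was not tested.

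**Figure D5:**
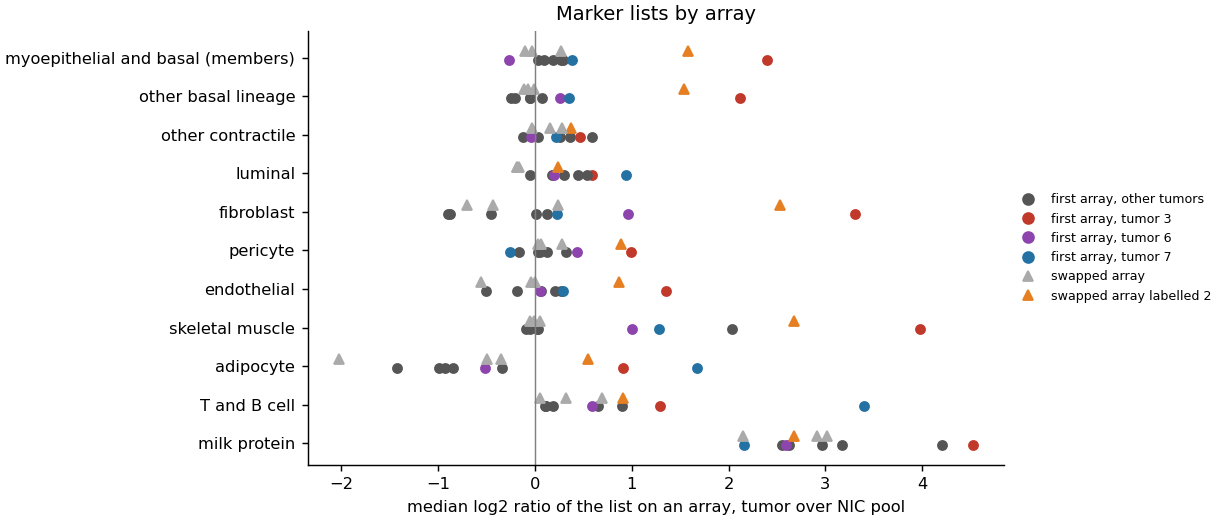
Median log2 ratio of tumor over NIC pool (horizontal axis) of each marker list (rows) on each array, with circles for first and triangles for swapped arrays. The first array of tumor 3 lies at 3.98 for skeletal muscle, 3.31 for fibroblast and 2.40 for the members, and the array of tumor 7 at 3.40 for T and B cell genes.

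Over the 8 tumors, 4 of 10 skeletal muscle genes were called higher, led by the fast myosin light chain gene Mylpf at 0.99 and the troponin gene Tnnc2 at 0.89, with Myh1 at 0.85 and Casq1 at 0.65. The count is a description, since Myh1 and Casq1 were above background on more tumor than pool channels (6 against 3 arrays and 9 against 6), and with both channels required on every array 4 genes of the list were tested and 2 called. Vim, the vimentin gene, was the 1 fibroblast gene called (1.53 ± 0.95, SD, n = 8; limma adjusted p = 0.00939), and Mcam the 1 pericyte gene (0.52 ± 0.45, SD, n = 8; limma adjusted p = 0.0444). With each swapped array joined to its best match none of the skeletal muscle genes was called in limma. In that fit 3 of 10 had an unadjusted p under 0.05, and the share of all genes was not counted. Without the first array of tumor 3 and the swapped array labelled 2, 1 skeletal muscle gene was called. In the test over 8 tumors no endothelial or adipocyte gene of 8 each was called in limma. Of these, 2 and 0 had an unadjusted p under 0.05, as had 6770 of all 20402 genes tested. Of 12 luminal genes, Cd24a (1.22), Krt8 (0.84) and Epcam (0.73) rose, and the hormone receptor gene Esr1 and the transcription factor gene Gata3 fell by 0.99 and 0.73. Gata3 was -0.084 with median centring. With each swapped array joined to its best match Cd24a kept its call (limma adjusted p = 0.00705), and Krt8 (0.29, adjusted p = 0.471), Epcam (0.35, 0.667), Esr1 (-0.88, 0.115) and Gata3 (-0.68, 0.0666) did not. Of 7 milk protein genes 6 rose, among them Csn2 by 4.59, Csn1s1 by 4.25, Glycam1 by 2.87 and Wap by 2.84, and Lck (1.51) was the 1 gene called among 9 T and B cell genes.

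The other genes of the contractile apparatus, 19 in all, had 2 called higher, none lower and 17 not called, with a median of 0.14. These were Flna, which encodes the actin cross-linker filamin A (0.90 ± 0.62, SD, n = 8; limma adjusted p = 0.0164), and Myl6, a myosin light chain of smooth and non-muscle cells (0.60 ± 0.41, SD, n = 8; limma adjusted p = 0.021). Neither kept its call with each swapped array joined to its best match (limma adjusted p = 0.0545 and 0.769). Without tumors 6 and 7 the list had 4 genes called higher. In that setting 5051 of all genes were called in either direction, against 3503 with all 8 tumors. Des and Tpm2, which encode desmin and a tropomyosin, were 2.19 and 2.18 in tumor 3 and 1.78 and 1.51 on the swapped array labelled 2. On the other arrays Des lay between -0.89 and 0.45, and Tpm2 between -1.12 and 0.73.

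None of 10 genes of the SRF and myocardin arm, which drives contractile gene transcription, was called in limma, with a median of -0.044. An unadjusted p under 0.05 was found for 3 of them, and for 6770 of all 20402 genes tested. With median centring 2 of the 10, Srf and Rhoa, were called higher. Of 12 genes of oxytocin signalling, 3 fell: Rgs2, an inhibitor of Gq signalling, by 1.53 ± 0.87, and the calcium release channel genes Itpr1 and Itpr3 by 0.77 ± 0.43 and 0.61 ± 0.33 (SD, n = 8; limma adjusted p = 0.00682, 0.00918 and 0.011). With each swapped array joined to its best match, Rgs2 kept its call (limma adjusted p = 0.0108) and Itpr1 and Itpr3 did not (0.0892 and 0.126). With median centring these 3 were -0.84, -0.11 and 0.11, none of the 3 was called, and Gna11 (0.44) was among the genes called higher. The G protein genes Gnaq and Gna11 and the phospholipase genes Plcb1 and Plcb3, which carry the signal from Oxtr, were not called with loess.

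Of 12 p63 target genes, Fras1 fell by 0.51 ± 0.22 (SD, n = 8; limma adjusted p = 0.00923) and 11 were not called. Fras1 was above background on 5 of 12 arrays in the tumor channel and on 12 in the pool channel, and it was not called with each swapped array joined to its best match (limma adjusted p = 0.217). Of 17 paralogs of the members, 4 rose and none fell: the cytoplasmic actin gene Actb by 0.55, the non-muscle myosin gene Myh10 by 0.90, Tagln2 by 0.81 and Trp53 by 0.72. Of these, Myh10 kept its call with each swapped array joined to its best match (limma adjusted p = 0.0136), and Actb, Tagln2 and Trp53 did not (0.0793, 0.182 and 0.771). The actin genes are close to each other in coding sequence, so which actin transcripts the coding Acta2 probe reads is uncertain.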

How the data were processed

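RNA of 8 tumors was measured on 12 two-colour arrays. The scanner software was Agilent Feature Extraction 9.5.3.1, per the file headers. The authors deposited mean and background intensity per spot and channel, a log10 ratio (red over green), other flags of 0 or 1 for spot quality, and a log2 value table, of which no source used here states the normalization or centring. Its direction is tumor over pool, by comparison with the scanner values.

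Here intensities were background-corrected (normexp, offset 50) and loess-normalized in limma 3.58.1 under R 4.3.3. Outlier spots were left out, ratios were signed as tumor over pool, and a tumor's first and swapped arrays were averaged. A gene probe was kept if its tumor or pool channel stood well above background on an array of at least 4 tumors. This kept 30838 of 41174 gene probes, and the brightest represented its gene. The tumor mean was tested against 0 with lmFit and eBayes over 20402 genes, and genes with a Benjamini-Hochberg adjusted p under 0.05 were called. The fit was tested on simulated data. The number of arrays limits the precision.

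Members and lists were chosen with earlier results of these data known. Named genes were the members, up to 4 called genes per list with the largest mean, the genes of highest likeness, and Shc1; some genes that the rule names are not reported here. Other genes were named after their values were seen: Des, Tpm2, Sox10, Itgb4, Krt18, Krt19, Col17a1, Lamb3, Snai2, Ngfr, Igfbp5, Sparc, Myh2 and Myh4. So were Srf, Rhoa and the G protein and phospholipase genes. No sequence of a probe outside coding sequence is printed.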

Additional observations from a re-analysis of the deposited data

How the results depend on the processing

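Oxtr and Cdh3 kept a mean above 0 under every alternative in which they were tested. Oxtr lost its call in 6 of 23 alternatives and Cdh3 in 6 of 24, all in limma. With the first arrays only, Oxtr was 0.80 and 1 member was called. With the swapped arrays only, Oxtr was 1.02, Cdh3 1.17, Acta2 -0.0091, Mylk 0.16 and Shc1 -0.11, with 1638 genes and 0 members called. With a dye term and the best-matching array as block, Oxtr was 0.84, Cdh3 0.90 and Acta2 -0.27, with 1635 genes and 0 members called, and with the tumor label as block Shc1 was -0.025. Within the slide of the first arrays of tumors 1 to 4, 928 genes and 1 member were called. That member was Acta2, at 1.29 on its brightest probe. Oxtr was 0.66 on this slide, Mylk 0.21, Tagln 0.26, Cdh3 1.36 and Shc1 -0.29. Within the slide of the first arrays of tumors 5 to 8, Oxtr was 0.94, Acta2 -0.55 and Cdh3 0.91, with 283 genes and 0 members called. Median centring put Tagln at 0.17, moved the median of all genes from -0.019 to 0.16, and moved the share of called genes that were higher from 38.4% to 71.1%. Acta2 was -0.026 both with Feature Extraction's log ratio and with the mean of all kept probes. Asking for both channels above background on every array left Oxtr untested and 1 member called. Leaving out each tumor in turn gave 1963 to 4542 genes called (1963 without tumor 4, 2233 without tumor 8) and 1 to 2 members, with Oxtr between 0.77 and 1.02, Cdh3 between 0.94 and 1.27, and Acta2 between -0.18 and 0.46.

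The following 3 alternatives were chosen after seeing the data. Without tumors 6 and 7, Acta2 was 0.97 (called, on its brightest probe only) and Mylk 0.12, with 5051 genes and 3 members called. Without the first array of tumor 3 and the swapped array labelled 2, Oxtr was 0.63 and not called, and Shc1 was 0.43 and called. There 3044 genes and 1 member were called. With the most downstream kept probe per gene, 3458 genes and 2 members were called. The test over all arrays had 3503 genes and 2 members called. The cause of these changes was not tested. Precision is limited by dim signals for Oxtr and by the number of arrays. No paired analysis was possible because the pool gives no control sample with a replicate number.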
